A study of Canis lupus familiaris with 6 samples.

Results

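The genes described here are 6 cell-surface proteins used as markers of stem-like and mesenchymal cells: PROM1, THY1, NT5E, MCAM, L1CAM and ALCAM. They were chosen from measured values of these same libraries. Their differences between the cell lines and between knockout and control are therefore a description, and calls among them are no independent test. Each symbol stood for 1 row of the deposited tables, and all 6 were among the 12270 genes with enough counts to be tested, of 30951 listed. The cells are canine melanoma lines, CMM2 and CMM12. For each line RNA was sequenced from 1 control, labelled wild type, and from 2 podoplanin knockout (KO) derivatives numbered KO 1 and KO 2, in 1 library apiece. No further allele or treatment is labelled in any of the 4 groups. The labels do not say how the KO was made, whether a KO line is a single clone, or whether the libraries came from separate cultures, so the p-values below reflect the spread of these libraries only, and that spread may be technical.

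PROM1 (CD133) is a pentaspan glycoprotein of membrane protrusions and is widely used to enrich for cells with stem-like properties in tumours. THY1 (CD90) and NT5E (CD73) are held in the outer membrane by a glycosylphosphatidylinositol (GPI) anchor and belong to the panel by which cultured mesenchymal stromal cells are defined; NT5E also converts extracellular AMP to adenosine. MCAM (CD146), L1CAM (CD171) and ALCAM (CD166) are adhesion receptors with immunoglobulin-type domains, and MCAM and ALCAM were both described early on as surface antigens of melanoma cells.

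The libraries held 9732927 to 11807835 estimated counts, and levels below are CPM (counts scaled to the library size with TMM factors) unless TPM (scaled for transcript length as well) is named. At these depths 3 counts in a library, used as the floor for folds against 0, correspond to 0.259 to 0.294 CPM. Such folds take the floor in place of 0 and are not 95% limits. Intervals are 95% intervals and, like floors, cover counting error only. PDPN, the targeted gene, stood below the matching control in all 4 KO libraries: 20.2 CPM against 5.59 and 5.58 in CMM2, and 87.8 CPM against 15.2 and 9.98 in CMM12. CMM2 KO 2 stood apart in its line. Of 8660 genes at a mean of 10 CPM or more, 6.39% differed at least 2-fold between it and the CMM2 control, whereas 0.889% did between CMM2 KO 1 and that control. In CMM12 the corresponding share was 4.47% for either KO line. Of 8 melanocyte markers, MITF was found in every library (15.4 to 28.4 CPM), TYRP1 only in CMM12 (3.71 to 6.07 CPM, and 0 in CMM2) and PMEL at 0.437 to 2.64 CPM. TYR, MLANA, SOX10 and S100B were at 0.1 CPM or below and DCT was at 0 throughout, so most defining markers of the melanocyte lineage were at or near 0. Among markers of other cell types, the epithelial list was at 0 in CMM2 and summed to 4.31 to 6.47 CPM in CMM12, mostly CDH1, so it moved with the line. Leukocyte markers summed to 0.852 to 2.87 CPM, with PTPRC and CD3E at 0, and VWF, the leading endothelial marker, had 8.33 to 15.4 CPM in CMM2 and 1.90 to 7.14 CPM in CMM12, with CDH5 at 0 in CMM2. Their part in the differences between lines was not tested.

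The 6 markers fell into 3 patterns. THY1, PROM1 and MCAM were close to or at 0 in CMM2 and present in CMM12, with NT5E also higher in every CMM12 library than in any CMM2 library. ALCAM was abundant in both lines. L1CAM was present in both lines but at 0 in CMM2 KO 2. Within CMM12, PROM1 had the largest difference between KO and control of the 6, with both KO libraries more than 10-fold above the control.

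**Figure D1:**
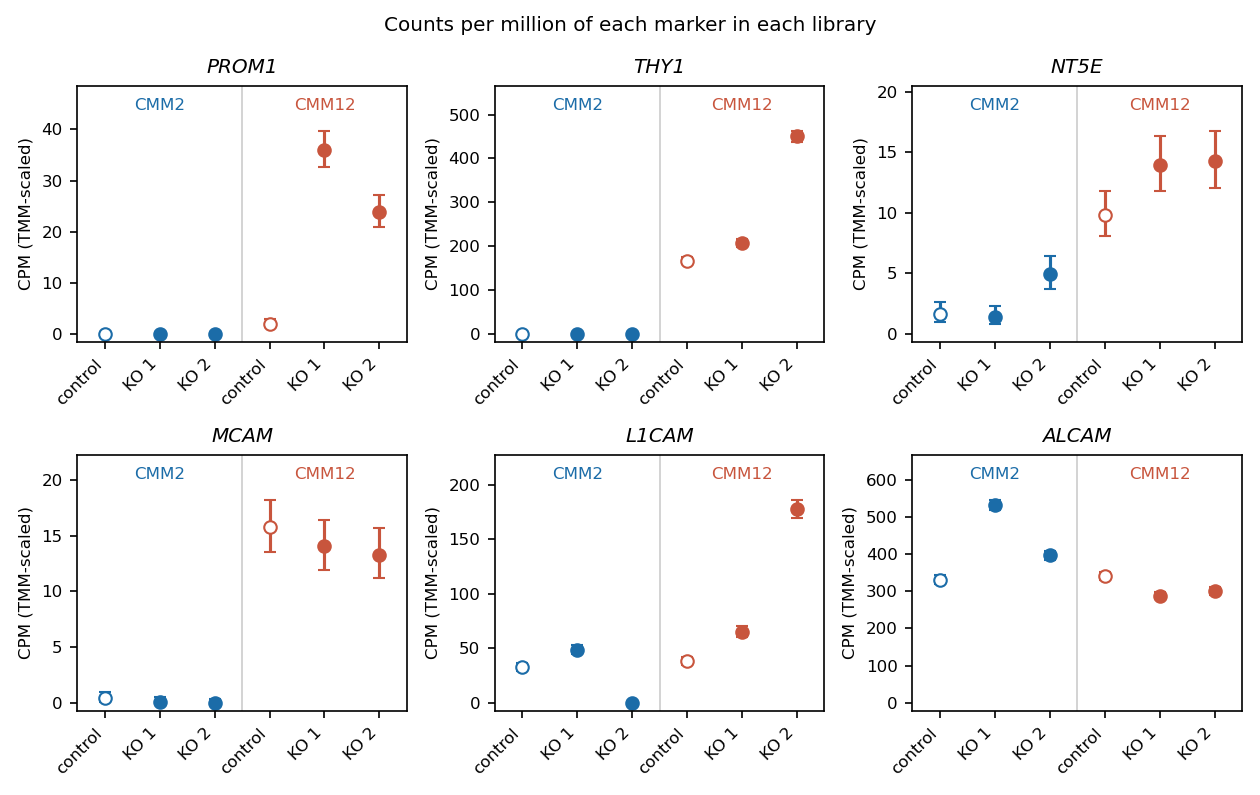
Each panel plots the level of 1 marker, in TMM-scaled CPM on a linear axis starting at 0, in the 6 libraries; open points are controls, filled points are KO libraries and bars are 95% counting intervals. THY1 and PROM1 lie at 0 in CMM2 and reach 450 and 36.0 CPM in CMM12, while L1CAM lies at 0 in CMM2 KO 2 alone.

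Levels of different genes were compared by TPM, which accounts for transcript length. ALCAM had the highest TPM of the 6 in each CMM2 library, at 70.83 in the control, 115.71 in KO 1 and 88.3 in KO 2. L1CAM followed in the control (6.89 TPM) and KO 1 (10.65 TPM), and NT5E in KO 2 (3.66 TPM). In CMM12 THY1 stood first in each library, at 114.59, 131.1 and 312.89 TPM, and ALCAM second, at 83.59, 65.86 and 76.17 TPM. The THY1 value of CMM12 KO 2 was above that of 96.1% of the tested genes. Below these, the order in CMM12 changed between libraries. L1CAM, MCAM and NT5E lay between 8.11 and 9.49 TPM in the control. PROM1, last in the control at 0.92 TPM, was at 15.31 TPM in KO 1, just above L1CAM at 14.81 TPM. With a single library per control, no spread was available to separate such neighbours in the order.

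PROM1 (ENSCAFG00000015233) had no count in any of the 3 CMM2 libraries. In CMM12 the control had 1.98 CPM from 23 counts, KO 1 had 36.0 CPM from 395 counts and KO 2 had 23.9 CPM from 244 counts. The KO libraries were therefore both far above the control, and the groups did not overlap. KO 1 stood 18.2-fold above the control (interval 11.9 to 29.0) and KO 2 12-fold (7.83 to 19.3), while KO 2 was lower than KO 1 (ratio 0.663, interval 0.563 to 0.780). The KO pair averaged 30.0 ± 8.59 CPM (SD, n = 2), and the fitted log2 fold change against the control was 3.91 (SE 0.58). The fitted change was 4.17 without KO 2 and 3.58 without KO 1. Between lines, the CMM12 control was at least 6.93-fold above the CMM2 control, KO 1 at least 137-fold above CMM2 KO 1 and KO 2 at least 84.1-fold above CMM2 KO 2.

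THY1 (ENSCAFG00000029265), a small GPI-anchored glycoprotein that binds integrins, was likewise at 0 in the 3 CMM2 libraries. A count of 0 there allows at most 0.322 to 0.352 CPM. CMM12 had 166 CPM in the control, 207 CPM in KO 1 and 450 CPM in KO 2, from 1928, 2267 and 4599 counts. With 0 set to the 3-count floor, the matched libraries of the lines were 581-fold, 789-fold and 1586-fold apart. Genes with 0 counts in every CMM2 library and at least 50 counts in every CMM12 library numbered 47, and THY1 had the highest CPM of them, while 11 genes had the reverse pattern. Against its control, CMM12 KO 1 was 1.24-fold higher (interval 1.17 to 1.32) and KO 2 2.71-fold higher (2.56 to 2.85). The log2 fold change of the KO pair was 0.98 (SE 0.50), and it was 0.31 without KO 2 and 1.44 without KO 1, so its size rested largely on KO 2. The summed level of 5 fibroblast and stromal markers was 1074 to 2344 CPM in CMM2, 733 CPM in the CMM12 control and 57.4 and 145 CPM in its KO libraries. Most of that sum was COL1A1, a fibrillar collagen chain, and the 5 markers did not share 1 direction. PDGFRA was also higher in CMM2 (64.2 to 119 CPM against 29.9 to 60.9 CPM). PDGFRB had 2.0 to 4.92 CPM in CMM2 and 3.11 to 10.5 CPM in CMM12. LUM and DCN reached 1.04 and 0.189 CPM in CMM2 and 16.9 and 8.94 CPM in CMM12, with 0 in CMM12 KO 2. Both CMM12 KO libraries were above the control for PDGFRA and PDGFRB. The part of these markers in the THY1 difference was not tested.

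NT5E (ENSCAFG00000002994) was low in CMM2, at 1.62 CPM in the control, 1.40 CPM in KO 1 and 4.92 CPM in KO 2, from 17, 16 and 52 counts. In CMM12 it stood at 9.84 CPM in the control, 14.0 CPM in KO 1 and 14.3 CPM in KO 2, from 114, 153 and 146 counts. The lines did not overlap, the highest CMM2 library being KO 2. The fitted log2 difference between lines was 2.30 (SE 0.47), and the matched libraries differed 6.06-fold (interval 3.62 to 10.8), 9.98-fold (5.95 to 17.9) and 2.90-fold (2.10 to 4.07). Within CMM12 both KO libraries were slightly above the control, at 1.42-fold (1.11 to 1.82) and 1.45-fold (1.13 to 1.87). In CMM2 they lay on opposite sides of it, KO 1 at 0.861-fold (0.407 to 1.81) and KO 2 at 3.03-fold (1.72 to 5.59). The CMM2 log2 fold change was 0.95 (SE 0.79) and turned to -0.22 without KO 2.

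MCAM (ENSCAFG00000012079), a receptor of laminin chains and of other membrane proteins, had 4, 1 and 0 counts in the CMM2 control, KO 1 and KO 2. CMM12 held 15.8 CPM in the control, 14.0 CPM in KO 1 and 13.3 CPM in KO 2, from 183, 154 and 136 counts. Every CMM12 library was above every CMM2 library. Summed over the libraries, CMM12 had 473 counts against 5 in CMM2, a CPM ratio of 93.8 (interval 39.9 to 290). In CMM12 the KO libraries lay just under the control, at 0.889-fold (0.713 to 1.11) and 0.843-fold (0.670 to 1.06), and both intervals include no change. Of the 4 markers that were higher in CMM12, MCAM was thus the one whose KO libraries lay below their control.

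L1CAM (ENSCAFG00000019362), a homophilic adhesion molecule of growing axons that many tumours also express, stood at 32.4 CPM in the CMM2 control and 48.7 CPM in CMM2 KO 1, from 339 and 557 counts. CMM2 KO 2 had 0 counts. CMM12 had 38.1 CPM in the control, 65.3 CPM in KO 1 and 178 CPM in KO 2, from 441, 716 and 1817 counts. The KO 2 libraries were therefore the lowest library of one line and the highest of the other. CMM2 KO 1 was 1.50-fold above its control (interval 1.31 to 1.73), whereas CMM2 KO 2 was at least 114-fold below it. In CMM12 KO 1 was 1.72-fold (1.52 to 1.94) and KO 2 4.67-fold (4.21 to 5.20) above the control. The CMM2 log2 fold change of -0.41 (SE 1.75) turned to 0.58 without KO 2, and the CMM12 one of 1.67 (SE 1.88) fell to 0.78 without KO 2. The control libraries of the lines differed 1.18-fold (1.02 to 1.36) and the KO 1 libraries 1.34-fold (1.20 to 1.50). The line difference of 1.65 (SE 1.23) on the log2 scale was 0.85 without CMM2 KO 2, 3.51 without CMM2 KO 1 and 0.93 without CMM12 KO 2.

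L1CAM was 1 of 9 genes at 0 counts in CMM2 KO 2 with at least 50 counts in both other CMM2 libraries, and it had the most counts of them in CMM2 KO 1. The others were RAPGEF5, NTS, TDRD12, SLC38A1, ANPEP, DSCAML1, CALML6 and VAV3. The same pattern was met by 1 gene for the CMM2 control, 1 for CMM2 KO 1, 0 for the CMM12 control, 0 for CMM12 KO 1 and 2 for CMM12 KO 2. Genes near L1CAM were looked up, after its values were seen, in the gene order of the RefSeq assembly UU_Cfam_GSD_1.0. Those that were tested were detected in CMM2 KO 2. Of the 6 genes on each side, 10 of 12 were listed and 7 tested, and those 7 had CPM ratios of CMM2 KO 2 to the control between 0.900 and 2.52. SSR4, a subunit of the translocon-associated complex, had 150, 181 and 307 CPM in the CMM2 control, KO 1 and KO 2. NAA10, a protein N-terminal acetyltransferase, had 89.9, 99.3 and 133 CPM. PDZD4, AVPR2 and ARHGAP4, which lie nearer to L1CAM, were at 0 in every CMM2 library and so carry no such information.

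In the same assembly THY1 and MCAM were separated by 4 genes, and the tested genes around them were not at 0 in CMM2. NECTIN1, an adhesion receptor beside THY1, had 201, 208 and 118 CPM in the CMM2 libraries and 178, 252 and 273 CPM in the CMM12 libraries. USP2, a deubiquitinase on the other side of THY1, had 2.10, 1.49 and 1.51 CPM against 4.66, 7.39 and 4.99 CPM. CBL, a ubiquitin ligase beside MCAM, had 27.5, 32.8 and 34.3 CPM against 33.6, 34.8 and 35.8 CPM. NECTIN1 and CBL, unlike THY1 and MCAM, were thus well detected in both lines. USP2, which lies between THY1 and MCAM, was low in CMM2 and was called higher in CMM12 (log2 1.74, SE 0.41, edgeR adjusted p = 0.0215).

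**Figure D2:**
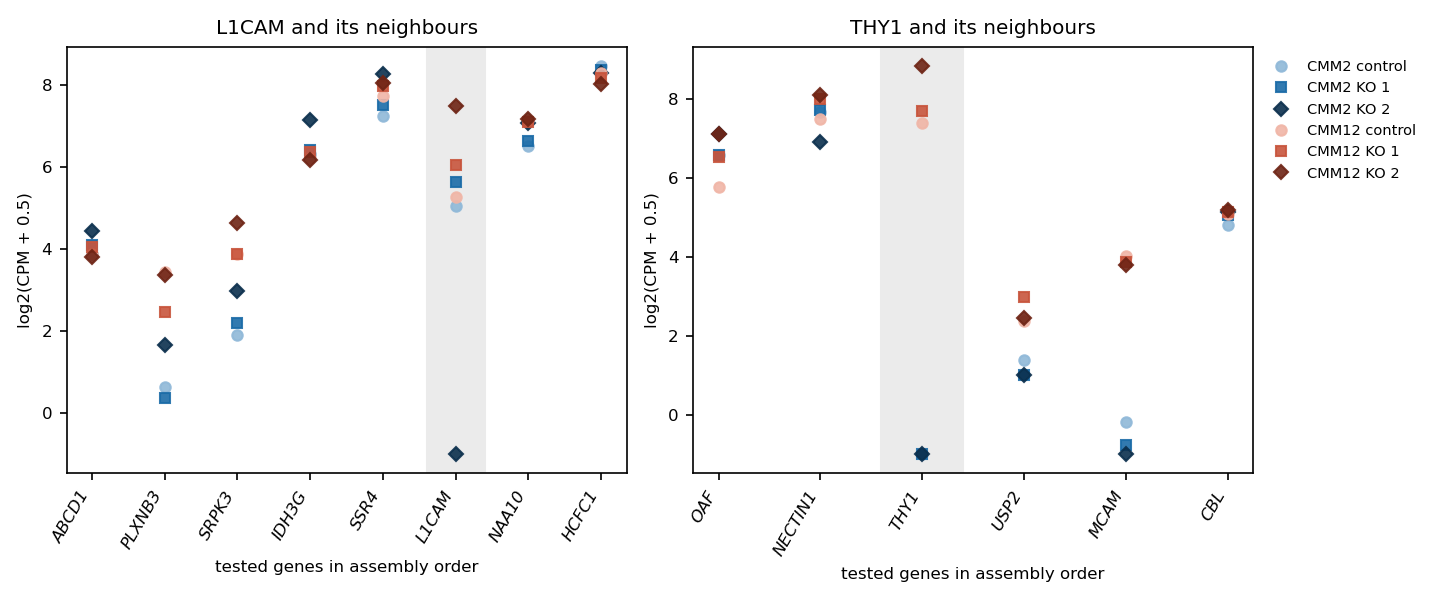
Levels of L1CAM (left) and THY1 (right) and of the tested genes among the 6 on each side of them in the RefSeq gene order, as log2(CPM + 0.5), with 1 point for each of the 6 libraries and the marker shaded. CMM2 KO 2 is at 0 counts for L1CAM and not for its tested neighbours. The CMM2 libraries are at 0 for THY1, with MCAM at 0 to 0.382 CPM and USP2, NECTIN1, OAF and CBL above 1 CPM.

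ALCAM (ENSCAFG00000009721), which binds itself on neighbouring cells and CD6 on lymphocytes, had 331 CPM in the CMM2 control, 533 CPM in KO 1 and 396 CPM in KO 2. In CMM12 it had 342 CPM in the control, 288 CPM in KO 1 and 301 CPM in KO 2. The controls differed little, at 1.03-fold (interval 0.986 to 1.08), and the lines overlapped. The KO libraries were above the control in CMM2, at 1.61-fold (1.54 to 1.68) and 1.20-fold (1.14 to 1.25), and below it in CMM12, at 0.843-fold (0.804 to 0.884) and 0.880-fold (0.839 to 0.923). The log2 fold changes were 0.49 (SE 0.28) and -0.22 (SE 0.27). The KO means were 465 ± 96.4 CPM in CMM2 and 295 ± 8.95 CPM in CMM12 (SD, n = 2). Both CMM2 KO libraries lay above both CMM12 KO libraries. The share of all genes with such an order was not counted, and 1 control per line gives no spread for the controls.

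The edgeR quasi-likelihood fit placed 4 of the 6 markers higher in CMM12 at an adjusted p under 0.05, namely THY1, PROM1, MCAM and NT5E. Of all tested genes, 14.6% were called higher in CMM12 by the same rule. The same 4 had every CMM12 library above every CMM2 library, as did 24.6% of the tested genes. The NT5E call was lost without the CMM2 control and also without the CMM12 control. Since the markers were selected on these values, the counts describe the selection.

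**Figure D3:**
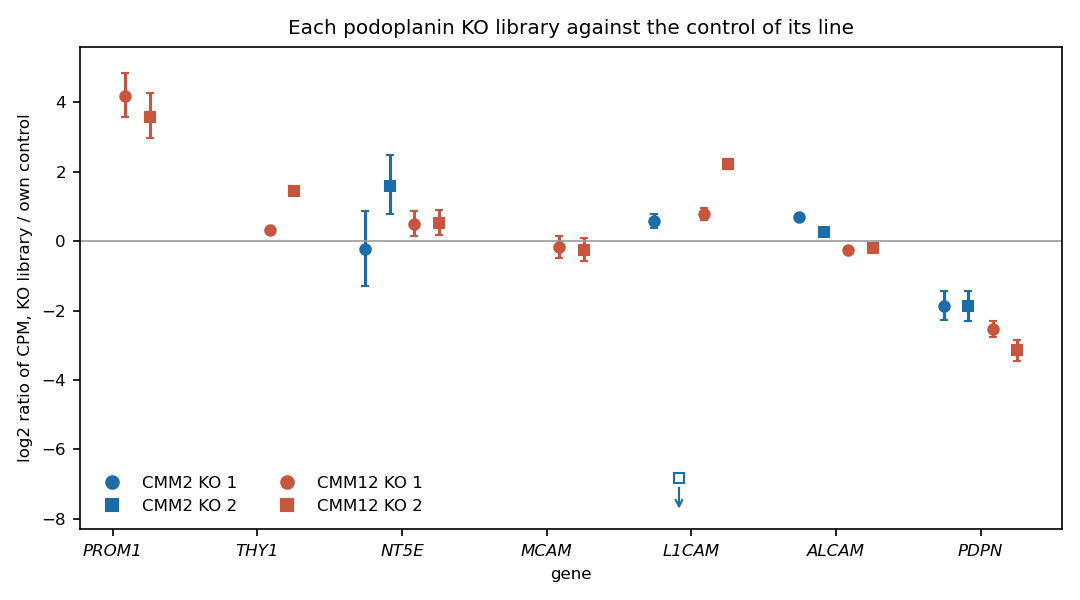
Ratio of each KO library to the control of its line for the 6 markers and PDPN, on a log2 axis with 95% counting intervals, circles for KO 1 and squares for KO 2. The open square with an arrow is L1CAM in CMM2 KO 2, with 0 set to the 3-count floor. Ratios for which both libraries had 3 counts or fewer, or which rest on so few counts in CMM2 (PROM1, THY1 and MCAM), are not drawn. PROM1 in CMM12 lies highest, at 18.2-fold and 12-fold, and the ALCAM points lie above 0 in CMM2 and below 0 in CMM12.

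Both KO libraries of CMM12 lay above the control for 4 of the 6 markers, PROM1, THY1, NT5E and L1CAM, and for 35.6% of all tested genes. In CMM2 this held for ALCAM alone among the markers and for 30.1% of all tested genes. By edgeR 0 of the 6 were called in either line. Nor was PDPN, the targeted gene, with log2 fold changes of -1.86 in CMM2 and -2.80 in CMM12. A lack of calls in this fit therefore does not show a lack of change. Over all genes edgeR called 0.00815% in CMM12 (1 gene) and 0.0% in CMM2, where 735 and 233 genes had an unadjusted p under 0.05. DESeq2 called PROM1 higher in the CMM12 KO libraries, as it did 0.171% of all tested genes, and called no marker in CMM2, where it called 0.0489% in either direction. Each of these counts rests on a single control library per line.

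The difference of the KO effect between the lines was fitted for the 4 markers with counts in both, and it is given as a description because it rests on the values by which the markers were chosen. For ALCAM the log2 difference (CMM12 minus CMM2) was -0.70 (SE 0.39). The differences were 2.08 (SE 2.52) for L1CAM, -0.43 (SE 1.03) for NT5E and, from 5 counts in CMM2, 2.59 (SE 1.18) for MCAM. Without CMM2 KO 2 the NT5E difference turned to 0.74 and that of L1CAM fell to 1.09. Neither edgeR, which called 0.0% of the tested genes with 471 at an unadjusted p under 0.05, nor DESeq2, which called 0.179%, called a marker here.

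KO 2 was set against KO 1 with the line as a term, a comparison that leaves out the controls. THY1 had a log2 value of 1.12 (SE 0.30; edgeR adjusted p = 0.908), which comes from CMM12 alone, where KO 2 stood 2.18-fold above KO 1 (interval 2.07 to 2.29). L1CAM had a log2 value of -1.61 (SE 2.21, edgeR adjusted p = 0.980). Its KO 2 level was 171-fold below KO 1 in CMM2, with 0 set to the 3-count floor, and 2.72-fold above it (2.50 to 2.97) in CMM12. PROM1 (-0.58, SE 0.46), NT5E (0.83, SE 0.54), MCAM (-0.24, SE 0.63) and ALCAM (-0.18, SE 0.21) had edgeR adjusted p-values of 0.976 to 0.988. Over the other tools the log2 value ranged from -5.18 (DESeq2) to -1.02 (limma on log2(TPM + 1)) for L1CAM and from 0.62 (the same limma fit) to 0.69 (DESeq2) for THY1. For PROM1 these fits gave -0.28 by DESeq2 and -0.21 by limma, and for MCAM -0.42 and 0.0011. THY1 alone of the 6 was among the genes with an unadjusted p under 0.05, and no marker was called by either tool. Over the 11474 genes of this fit edgeR called 0.0%, with 539 at an unadjusted p under 0.05, and DESeq2 0.296%. The 2 KO lines of CMM12 thus differed from each other in THY1, L1CAM and PROM1 by more than counting error. No fit compared them within CMM12 alone, since the fit above pools both lines, so a lack of calls does not bear on that difference.

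Across the 6 libraries, THY1 and MCAM had the most similar profiles of any pair of markers (Pearson r = 0.99 on centred log2 values, n = 6 libraries). PROM1 correlated with THY1 at 0.91 and NT5E with THY1 at 0.91. ALCAM was negative against each of the others, from -0.73 with PROM1 to -0.31 with L1CAM. The libraries share a line in groups of 3, so these values are descriptions only.

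Among 10132 genes with a symbol and a mean of at least 1 CPM, the nearest profiles by root mean square difference of centred log2(CPM + 0.5) over the 6 libraries were close for NT5E, MCAM and ALCAM and more distant for the others. For ALCAM they were SAC3D1 (0.0486), HERC6 (0.0748) and PIDD1 (0.0756), each highest in CMM2 KO 1. For NT5E they were NRG2 (0.101), RNF130 (0.194) and CEBPB (0.214), and RNF130 had 12.6, 11.4 and 41.6 CPM in CMM2 against 91.2, 116 and 117 CPM in CMM12. For MCAM they were UNC119 (0.261), INSYN1 (0.272) and SEC14L4 (0.273), which had at most 1 count in any CMM2 library. PROM1 was nearest to DLX3, a homeobox transcription factor (0.598), NAT8L (0.598) and PAQR5 (0.657). DLX3 was at 0 in CMM2 and at 0.777, 14.9 and 9.30 CPM in the CMM12 control, KO 1 and KO 2, the order seen for PROM1. THY1 was nearest to PDLIM4 (0.669), TFPI2 (0.730) and TUBA4A (0.741), all at 0 in CMM2. L1CAM was nearest to SLC38A1 (0.908), ANPEP (0.920) and FARP1 (0.958), of which the first pair share its 0 in CMM2 KO 2.

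Other genes of the same kinds were taken as 5 lists. These were chosen with earlier results of these data known, so their shares are descriptions too. The share called in each stands beside 14.6% higher and 11.2% lower in CMM12 over all tested genes, with a median log2 difference of 0.04. Of 22 tested stem and stromal surface markers other than the 6, edgeR called 5 higher and 6 lower in CMM12, with a median of -0.09. ABCG2, a drug efflux pump, was lower in CMM12 (log2 -3.06, SE 0.24, edgeR adjusted p = 5.4e-04), at 54.9, 61.3 and 40.9 CPM in CMM2 and 6.30, 5.75 and 6.75 CPM in CMM12. MME, the membrane peptidase CD10, was higher (4.36, SE 0.38, edgeR adjusted p = 8.6e-04), with 4.78, 3.76 and 4.16 CPM against 156, 40.5 and 87.9 CPM. LEPR, the leptin receptor, had 4, 2 and 0 counts against 1545, 1136 and 170, and NCAM1 had 0 in CMM2 against 27.0, 0.730 and 0.0979 CPM in CMM12. The other stem and stromal markers thus did not share 1 direction between the lines.

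Of 20 tested immunoglobulin-type adhesion receptors, 7 were called higher and 0 lower in CMM12, with a median of 0.58. F11R, a tight junction receptor, was at 0 in CMM2 and at 16.6, 20.5 and 9.59 CPM in CMM12. CADM4 (3.48, SE 0.39), JAM3 (1.58, SE 0.20) and IGSF8 (1.45, SE 0.18) were higher in CMM12 on the log2 scale, with edgeR adjusted p-values of 0.0018, 0.0024 and 0.0025. Of 26 tested ligands, partners and sheddases of the 6 markers, 6 were called higher and 0 lower, with a median of 0.42. BACE1, a protease that sheds membrane proteins, was higher by 0.95 (SE 0.15, edgeR adjusted p = 0.0053). ANK1 and ANK3, ankyrins of the family that tethers L1CAM to the spectrin skeleton, and KDR, a receptor that associates with MCAM, were at 0 in CMM2. Their levels differed widely within CMM12. In its control, KO 1 and KO 2, ANK1 had 11.2, 1.46 and 2.45 CPM and ANK3 had 0.604, 1.37 and 6.95 CPM. KDR had 8.03, 0.365 and 1.86 CPM there. By edgeR both lists held calls in 1 direction, while DESeq2 called 8 higher and 0 lower among the adhesion receptors and 8 higher and 1 lower among the partners.

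Of 22 tested genes of extracellular ATP and adenosine, the pathway of NT5E, 7 were called higher and 2 lower in CMM12, with a median of 0.16. DPP4, a peptidase that binds adenosine deaminase, had 0.573, 0.437 and 0.189 CPM in CMM2 and 73.8, 21.3 and 47.7 CPM in CMM12 (log2 6.82, SE 0.47, edgeR adjusted p = 3.9e-04). SLC29A1, which carries adenosine across the membrane, was higher by 2.59 (SE 0.20, edgeR adjusted p = 5.4e-04), and ADORA2A, an adenosine receptor, by 3.03 (SE 0.29, edgeR adjusted p = 0.0011). NT5C, a cytosolic nucleotidase, was lower (-1.67, SE 0.19, edgeR adjusted p = 0.0020). P2RX4, a receptor of extracellular ATP, was the other gene called lower (log2 -1.04), so the called genes of this pathway did not share 1 direction.

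GPI anchor synthesis, on which THY1 and NT5E depend for their attachment, had 2 of 24 tested genes called higher and 2 lower, with a median of -0.05. PIGX (1.47, SE 0.19) and GPAA1 (0.66, SE 0.14) were higher in CMM12 and PIGQ (-1.06, SE 0.20) and PGAP1 (-0.97, SE 0.23) lower, with edgeR adjusted p-values of 0.0024, 0.015, 0.010 and 0.022. Leaving out CMM2 KO 2, the counts of calls higher and lower were 5 and 6 for the stem and stromal list, 8 and 0 for the adhesion receptors, 8 and 0 for the partners, 7 and 1 for the adenosine pathway and 2 and 2 for the GPI list. Over all libraries left out in turn, the partners gave 3 to 8 higher and the stem and stromal list 2 to 6 lower, the smallest counts of both coming without the CMM2 control and without the CMM12 control. Over all genes 942 to 1827 were called higher, the fewest without CMM2 KO 1.

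**Figure D4:**
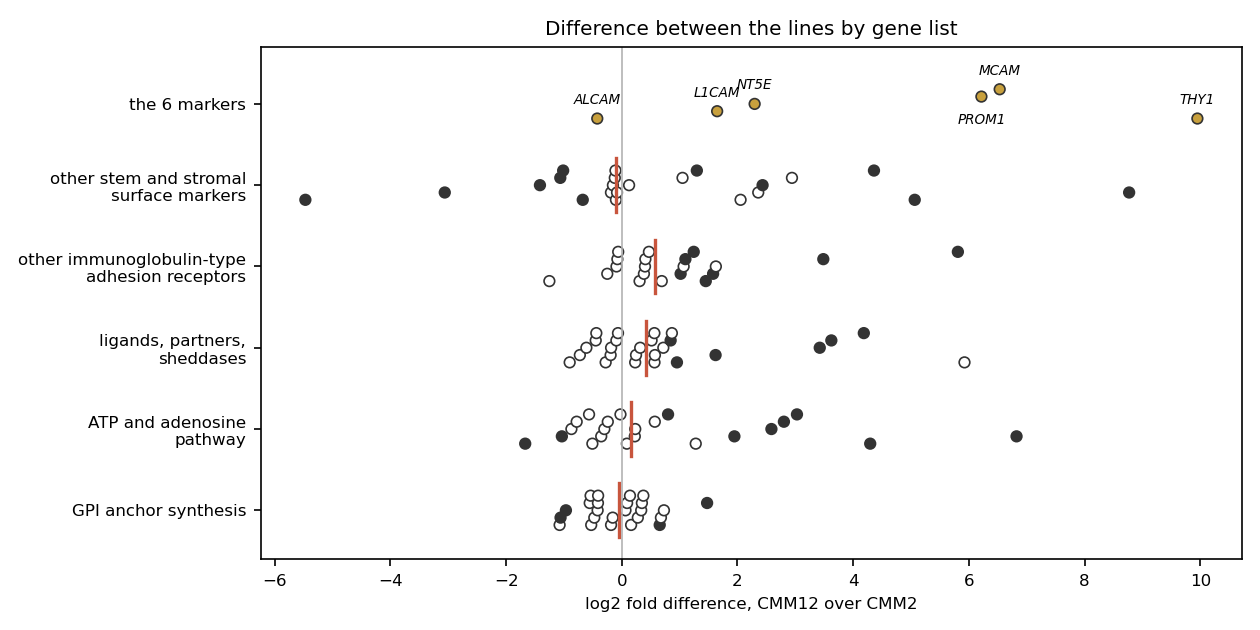
Log2 difference between CMM12 and CMM2 for the 6 markers (gold, labelled, no test shown) and for the tested genes of the 5 lists, where filled points passed the edgeR threshold, open points did not and the short vertical line is the list median. Genes at 0 in every library of a line are placed with 0 set to the floor of 3 counts per library. ALCAM alone of the 6 lies below 0, and the adhesion receptors and the partners have filled points on the CMM12 side only.

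In the KO comparisons the 5 lists together held 114 different tested genes, of which edgeR called 0 in either line. At an unadjusted p under 0.05 there were 3 in CMM2 (2.63%, beside 1.90% of all tested genes) and 17 in CMM12 (14.9%, beside 5.99%). Because the lists were chosen with earlier results known, these shares are no independent test. DESeq2 called 0 in CMM2 and 1 in CMM12, ENG. ENG (CD105), a TGF-beta co-receptor and, like THY1 and NT5E, a defining marker of mesenchymal stromal cells, had 22.8 CPM in the CMM12 control (264 counts) and 0 and 0.196 CPM in its KO libraries (0 and 2 counts), with a DESeq2 adjusted p of 7.2e-09 and an edgeR adjusted p of 0.0857. Thus 2 surface markers of the same panel, THY1 and ENG, lay on opposite sides of the control in CMM12. Between the lines ENG had 85.0, 74.3 and 127 CPM in the CMM2 control, KO 1 and KO 2. It was called lower in CMM12 by edgeR (log2 -5.47), the opposite direction to THY1 and NT5E.

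Genes of the lists with small p-values are given by value, since none passed the edgeR threshold. In CMM2 the integrin subunit ITGB5 had 19.2, 39.9 and 68.3 CPM in the control, KO 1 and KO 2, the galectin LGALS3 had 242, 369 and 1227 CPM, and NEO1 had a log2 value of -0.92 (SE 0.27). All 3 had an edgeR adjusted p of 1. In CMM12 ADGRE5 (CD97), a ligand of THY1, had 88.1 CPM in the control and 159 and 184 CPM in the KO libraries, with an edgeR adjusted p of 0.702. NCAM1 had 27.0 CPM in the control against 0.730 and 0.0979 CPM, and ANK1 had 11.2 CPM against 1.46 and 2.45 CPM, with edgeR adjusted p-values of 0.445 and 0.749. The adhesion receptors NECTIN2 (-0.73, SE 0.26) and CADM4 (-1.20, SE 0.45) had log2 values below 0, with edgeR adjusted p-values of 0.798 and 0.804. The purine enzymes AMPD2 (-0.84, SE 0.22) and PNP (0.66, SE 0.25) had edgeR adjusted p-values of 0.702 and 0.805. List medians in the KO comparison of CMM12 were 0.32 for the stem and stromal markers and -0.11 to 0.05 for the other 4 lists, beside 0.02 over all genes. In CMM2 they were 0.20 for the stem and stromal markers and 0.27 for the partners. With genes at 0 in 1 group set to the 3-count floor, these were 0.13 and 0.22. The other 3 lists lay between -0.04 and 0.11 in CMM2, beside 0.00 over all genes.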

How the data were processed

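RNA extracted with an RNeasy kit (1 ug of it per library) went into NEBNext Ultra libraries, per the labels' protocols. The submitters' processing notes name STAR 2.7.3a and RSEM 1.3.3, with CanFam3.1 as the build. Unscaled expected counts for each gene and TPM values, scaled for transcript length within a library, were deposited by the authors, per the file headers. Whether counting used strand is not stated there, and overlapping antisense genes cannot be told apart.

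The expected counts were rounded (3.22% to 3.63% of values changed). edgeR 4.0.16 in R 4.3.3 (TMM, filterByExpr on the 4 groups, quasi-likelihood test, older form of the spread estimate) was fitted to all genes with Benjamini-Hochberg adjustment at 0.05. The line contrast used additive line and genotype terms; the KO contrasts used 4 group means, where the lone control of a line is assumed to vary like its KO pair; KO numbers were compared in a model of line and number. Alternatives were DESeq2 1.42.0, other size factors and filters, the bias-adjusted spread estimate, limma 3.58.1 on log2(TPM + 1) and log2(TPM + 0.1), and each library left out. Ratios between libraries used exact counting intervals.

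The markers and the 5 gene lists were chosen with earlier results of these data known. Named genes are PDPN, the 6 markers, the 3 nearest profiles of each and, from each list, up to 4 genes by p between lines and 2 in each KO contrast. Neighbouring genes, and genes at 0 in a single library, were looked up after the values were seen. Whether same-numbered KO libraries share more than the number is not stated in the labels.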

Additional observations from a re-analysis of the deposited data

Results flagged for a closer look

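ALCAM was singled out because both KO libraries lay above the control in CMM2 and both lay below it in CMM12. The difference of the effects (CMM12 minus CMM2) was -0.70 on the log2 scale (SE 0.39) by edgeR and -0.70 (SE 0.40) by DESeq2. Neither edgeR nor DESeq2 called this difference. It is given as a description, since the gene was chosen with these values known. Over the alternatives it stayed between -0.90 and -0.47. No group had enough libraries for a check of single outlying samples.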

How the results depend on the processing

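Limits: each line has 1 control library, and KO numbers are not shown to pair the lines. CMM2 counts of 0 (PROM1, THY1) allow only folds against the floor, and the 5 MCAM counts a wide interval. Of the values compared with the main analysis, 366 kept direction and side of the threshold, 7 fell below it, 4 rose past it and 7 changed sign.

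Between lines 3170 genes were called, and 1499 to 3096 with a library left out. In the KO libraries alone it was 1700 with the KO number as a replicate block and 1884 with no replicate block, with 4 and 3 markers called. KO differences of the same number correlated at 0.057 between lines across genes, over 2 pairs. With 1 difference per line, this correlation cannot show whether the numbers pair the samples. NT5E lost its line call without the CMM2 control (edgeR adjusted p = 0.0585), without the CMM12 control (0.0593) and in the KO libraries with no block (0.0560). In CMM2, KO calls were 0, against 6 by DESeq2, 1 with no low-count filter and 0 to 1 with a library left out. In CMM12 the count was 1, against 45 by DESeq2, 26 with no low-count filter, 0 with at least 1 CPM in 2 libraries, 4 with the bias-adjusted spread, 0 by limma on log2(TPM + 1), 0 on log2(TPM + 0.1), 75 on log2(TPM + 1) with no filter and 0 to 14 with a library left out. Of the markers 0 were called there, against 1 (PROM1) by DESeq2 (adjusted p = 3.8e-04) and 1 with no low-count filter (edgeR adjusted p = 0.038). The KO difference between lines gave 0, against 22 by DESeq2, 2 with no filter and 0 to 1 with a library left out. The KO number contrast gave 0, against 34 by DESeq2, 12 with no filter and 2 by limma on log2(TPM + 1); with a KO library left out it could not be fitted, since no residual degrees of freedom remain.

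Leaving out CMM2 KO 2 changed the sign for NT5E in CMM2 (-0.22, and 1.59 without KO 1), for L1CAM in CMM2 (0.58, and -11.45 without KO 1, where only the 0 remains and the value is no bound) and for the NT5E KO difference (0.74, and -1.07 without CMM2 KO 1). By limma on log2(TPM + 1), with and without the filter, it changed for the MCAM KO difference (-0.026) and the MCAM KO number contrast (0.0011). The cause of the changes between tools was not tested.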
